A study of Marmota monax with 203 samples.

Results

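The liver transcripts described here encode 10 antiviral effectors with a known or proposed action on hepadnaviruses, the family of small DNA viruses that includes human hepatitis B virus and the woodchuck hepatitis virus (WHV). They are RSAD2, CMPK2, MX1, MX2, BST2, ISG20, SAMHD1, ZC3HAV1, SMC5 and SMC6. The members were chosen by gene symbol, with earlier results of these data known. All 10 were among the 17587 genes of the count tables. The animals were woodchucks (Marmota monax) that carried chronic WHV infection established neonatally, and every group compared here carried it. The 12 placebo animals received vehicle. The 11 animals treated with recombinant woodchuck interferon alpha (wIFN-α) received it under the skin 3 times per week, at 20 µg per dose at weeks 0 and 3 and at 100 µg per dose at weeks 7, 11 and 15. Both arms held males and females, and ages are not given in the labels. Liver biopsies were taken before treatment at week -3, at those 5 weeks of dosing, when the study sampled livers 6 h after a dose, and after dosing had ended at weeks 19 and 23. The labels number the weeks from 0 onwards 1 higher, and the study's own weeks are used here.

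At weeks -3, 0, 3, 7, 11, 15, 19 and 23 there were 11, 11, 9, 9, 8, 8, 6 and 6 wIFN-α animals and 12, 12, 12, 12, 10, 9, 5 and 9 placebo animals. Not every animal had a biopsy at every week, and the labels record deaths and early removals, so the weeks hold different subsets of the same animals. The 68 wIFN-α and 81 placebo biopsies held 12072840 to 84805845 reads on genes, with a median of 28754894. In 147 of them, 4.21 to 19.9% of gene reads lay on a list of 12 hepatocyte genes. The exceptions were both taken at week -3, from F1018 of the wIFN-α arm and F1016 of the placebo arm, with 0.0269% and 0.0375% on the hepatocyte genes and 14.8% and 14.5% on a list of 20 skeletal muscle genes. These 2 samples do not carry the marker profile of the liver they are labelled as. The largest muscle share in any other biopsy was 12.2%, and 21 biopsies exceeded 1%. For M1008 (placebo), the week 15 biopsy had 2 runs that differed far more than other pairs of runs with a shared barcode. At that week 8 members, MX2 among them, were called with and without this animal. Among pairs of runs with different barcodes, the 2 runs of F1022 (wIFN-α) at week 19 differed most.

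Interferon alpha binds a cell surface receptor and, through JAK kinases and STAT transcription factors, switches on a large set of interferon-stimulated genes in nearly every cell type. The products act at different points of a virus's life. Hepadnaviruses enter the nucleus as DNA, keep a covalently closed circular genome there as the template for their RNAs, copy the packaged RNA back into DNA in the cytoplasm and leave the cell as enveloped particles. RSAD2, or viperin, is a radical SAM enzyme that converts CTP into a chain-terminating nucleotide, and CMPK2 is the nucleotide kinase that supplies CTP beside it. MX1 and MX2 are dynamin-like GTPases that trap viral nucleocapsids or block nuclear entry. BST2, or tetherin, holds budding enveloped particles at the membrane. ISG20 is an exonuclease that degrades viral RNA, ZC3HAV1, or ZAP, binds CpG-rich viral RNA and recruits decay enzymes, and SAMHD1 hydrolyses the dNTPs that reverse transcription needs. SMC5 and SMC6 form the core of a chromosome maintenance complex that silences the circular viral DNA, and the viral X protein directs it to degradation through the host's DDB1 ubiquitin ligase.

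Before treatment the members were at similar levels in both arms. Levels are given as CPM, the count of a gene scaled to a common library size after TMM normalization, which compare the same gene between biopsies. To set different genes side by side, the deposited values per length of assembled transcript (RPKM) were used. Over the 81 placebo biopsies MX1 stood highest, with a median of 64.4 RPKM (SD 23.9), and was above ZC3HAV1 in 81 of 81 biopsies. ZC3HAV1, BST2, SAMHD1 and SMC6 followed at medians of 8.01, 7.56, 6.56 and 6.18 RPKM, and these 4 were not separated by the spread of the biopsies, since ZC3HAV1 was above BST2 in 42 of 81 and SAMHD1 above SMC6 in 48 of 81. RSAD2 (4.44 RPKM), SMC5 (3.48), ISG20 (3.26) and CMPK2 (1.55) came next, with SMC5 above ISG20 in 51 of 81. MX2 was listed at a median of 0. BST2 spanned 1.47 to 46.5 RPKM over these biopsies and MX1 3.56 to 130.8 RPKM. At week -3, 0 of 9 members tested differed between the arms by edgeR's quasi-likelihood test, 0 of them at an unadjusted p under 0.05, and log2 differences lay between -0.12 and 0.23. DESeq2 also called 0. Of all 14963 genes, 0 were called, or 0%. F1018 and F1016 gave the lowest week -3 values of their arms for RSAD2 (4.61 and 5.22 CPM), MX1 (104.4 and 37.3 CPM), ISG20 (1.76 and 1.74 CPM) and ZC3HAV1 (18.4 and 19.7 CPM).

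**Figure D1:**
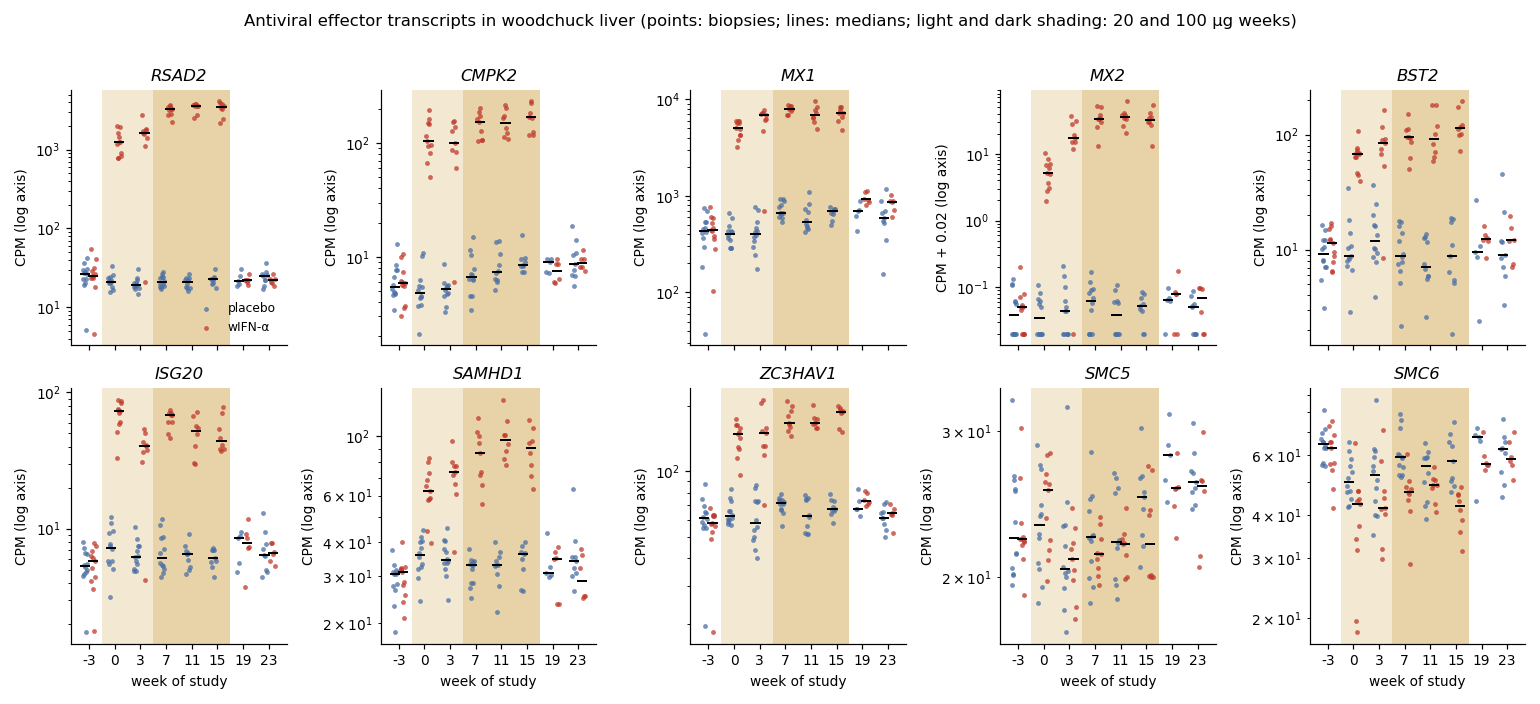
Levels of the 10 members in each biopsy, in CPM after TMM scaling on log axes (MX2 with 0.02 added so that values of 0 can be drawn), by week of study and arm. Blue points are placebo biopsies, red points wIFN-α biopsies and black lines group medians. In the upper row and for ISG20, SAMHD1 and ZC3HAV1 the red points stand above the blue ones at the shaded weeks of dosing apart from 1 animal at week 3 and, for SAMHD1, 2 at week 0, and at weeks 19 and 23 the ranges of both arms overlap for every member.

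A gene was called where the adjusted p was under 0.05 and the fold change above 1.5. From the first dose onwards 8 of the 10 members were called higher in the wIFN-α arm, and the same 8 were called at weeks 0, 7, 11 and 15. At week 3, 7 of the 9 members tested were called, and MX2 was below the filter on low counts. At the other weeks of dosing MX2 passed that filter only through the wIFN-α biopsies, so its calls there carry no weight as tests. The share of all tested genes called higher was 10.3% at week 0, 7.24% at week 3, 11.4% at week 7, 12.6% at week 11 and 13.4% at week 15. The median log2 fold change of the members was 2.87 at week 0 and 3.29 at week 15, against -0.01 over all genes at both weeks. SMC5 and SMC6 were not called at any week. At week 0 every wIFN-α animal stood above every placebo animal for 7 members, and at weeks 7, 11 and 15 for 8 members, where 4% of all tested genes were so separated at week 0 and 7.18%, 6.55% and 7.36% at the later weeks. In biopsies of whole liver, more RNA per cell and more cells of a type cannot be told apart.

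RSAD2 and CMPK2, the nucleotide pair, were among the members that changed most. RSAD2 was at 15.6, 21.1 and 33.7 CPM (lowest, median and highest) in 12 placebo animals at week 0 and at 790.2, 1246 and 1997 CPM in 11 wIFN-α animals. The arms did not overlap. The log2 fold change was 5.89 (SE 0.20, edgeR adjusted p = 2.58e-16), a 59.1-fold difference. At week 15 the placebo values were 17.4, 22.9 and 30.7 CPM in 9 animals and the wIFN-α values 2174, 3477 and 4105 CPM in 8. All treated animals were again above all placebo animals, with a log2 fold change of 7.28 (SE 0.17, edgeR adjusted p = 1.84e-15), or 155.3-fold. At weeks 7 and 11 the difference was 7.22 (SE 0.13) and 7.41 (SE 0.14) on the log2 scale, close to the value at week 15.

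CMPK2 started from a lower level than RSAD2 per length, and its difference between the arms was of like size at the first and the last week of dosing. In placebo animals it was at 2.10, 4.78 and 10.8 CPM at week 0 and in wIFN-α animals at 50.6, 105.5 and 195.8 CPM. At week 15 the values were 7.33, 8.48 and 15.7 CPM against 117.2, 168.5 and 233.9 CPM. The arms did not overlap at either week. The log2 fold change was 4.40 (SE 0.27, edgeR adjusted p = 2.93e-12) at week 0 and 4.24 (SE 0.19, edgeR adjusted p = 3.36e-12) at week 15. Over the 45 biopsies of treated animals during dosing, CMPK2 and RSAD2 had a Pearson r of 0.87 on log2(CPM + 1), and of 0.65 without the week 3 biopsy of F1013, which stood at untreated levels. These points share animals and weeks. In RefSeq's woodchuck annotation (assembly Marmota_monax_Labrador192_F-V1.1) the 2 genes are neighbours. The further genes that handle viperin's iron-sulfur cluster or were described as its partners, CIAO1, FDPS and FAM96A (3 of 3 tested), did not pass the call at any of the 5 weeks of dosing, with log2 differences at week 15 of -0.41, 0.13 and -0.13.

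The 2 MX genes differed in starting level. MX1 was already the most abundant member in placebo liver, at 286.2, 403.4 and 662.1 CPM at week 0, and stood at 3238, 5001 and 5953 CPM in the wIFN-α animals. The arms did not overlap, and the log2 fold change was 3.59 (SE 0.16, edgeR adjusted p = 1.33e-14). At week 15 it was 505.1, 689.1 and 768.5 CPM in placebo and 4841, 7200 and 8307 CPM in treated animals, a log2 fold change of 3.47 (SE 0.12, edgeR adjusted p = 2.08e-13). MX1 thus stood 12.1-fold and 11.1-fold above placebo at the first and last week of dosing.

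MX2, by contrast, was close to undetected without wIFN-α. The 81 placebo biopsies held 0 to 6 MX2 reads each, with 0 reads in 33 of them, where the same biopsies held 666 to 63394 MX1 reads. At week 0 the treated animals held 55, 172 and 286 MX2 reads (lowest, median, highest), at week 7 they held 376, 1141 and 1957, and at week 15 317, 1054 and 1831. Because the placebo reads were so few, MX2 was compared as the ratio of pooled reads per gene read, with an exact 95% interval that covers counting error only. The ratio was 185-fold (97 to 404.3) at week 0, from 1773 reads against 9. It was 389-fold (249.1 to 647.4) at week 3, 663-fold (428.9 to 1086) at week 7, 1175-fold (618.9 to 2571) at week 11 and 969-fold (541.4 to 1942) at week 15. In CPM, the medians of the treated animals were 5.06 at week 0, 17.2 at week 3, 33.8 at week 7, 36.0 at week 11 and 32.0 at week 15. MX2 passed the filter on low counts only through the wIFN-α biopsies. Its calls at weeks 0, 7, 11 and 15 therefore add nothing to these reads, and no p-value is given. MX1 and MX2 are paralogs, and reads from stretches they share could have been assigned to either. Both names come from the authors' assembly, whose contigs carry symbols of related human and rodent genes. Which woodchuck gene the MX2 entry stands for was not tested. No placebo biopsy held more than 0.191 CPM of MX2, while MX1 reached 1190 CPM among them.

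**Figure D2:**
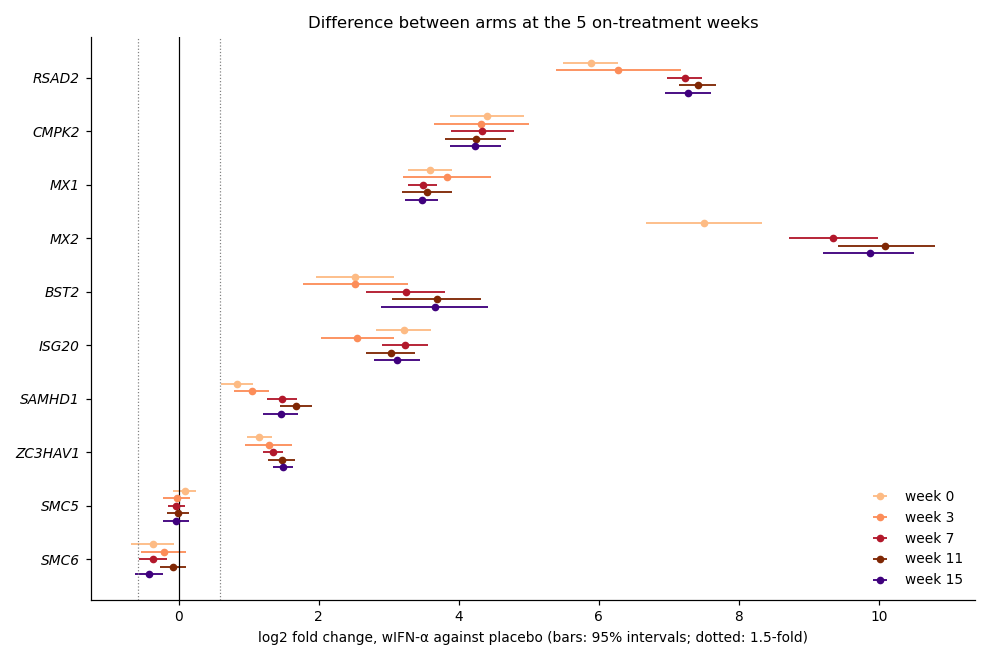
Log2 fold change of each member, wIFN-α against placebo, at the 5 weeks of dosing, with bars for 95% intervals and dotted lines at a fold change of 1.5. RSAD2, MX2, BST2, SAMHD1 and ZC3HAV1 lie farther right at weeks 7 to 15 than at week 0, CMPK2, MX1 and ISG20 do not, and SMC5 and SMC6 stay inside or across the dotted lines. MX2 has no value at week 3, where it was below the filter.

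BST2, the tether of enveloped particles, was at 2.87, 8.73 and 34.3 CPM in placebo animals and 39.9, 67.8 and 108.4 CPM in wIFN-α animals at week 0. At week 15 it was at 1.86, 8.83 and 18.8 CPM against 72.4, 113.6 and 194.7 CPM. The lowest treated animal was above the highest placebo animal at both weeks. The log2 fold change was 2.52 (SE 0.29, edgeR adjusted p = 1.75e-07) at week 0, 3.25 (SE 0.29) at week 7, 3.69 (SE 0.32) at week 11 and 3.66 (SE 0.39, edgeR adjusted p = 6.36e-07) at week 15. At week 15 BST2 had the widest standard error of the called members.

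ISG20 and ZC3HAV1 act on RNA. ISG20 was at 3.16, 7.27 and 12.2 CPM in placebo and 33.2, 73.2 and 88.7 CPM in treated animals at week 0, and at 4.41, 6.05 and 7.15 CPM against 37.2, 43.7 and 78.3 CPM at week 15. The arms did not overlap at either week, and the treated median was lower at week 15 than at week 0. The log2 fold change was 3.22 (SE 0.20, edgeR adjusted p = 3.19e-12) at week 0, 2.55 (SE 0.27) at week 3 and 3.12 (SE 0.17, edgeR adjusted p = 5.79e-11) at week 15. ZC3HAV1 was at 56.8, 62.3 and 83.0 CPM against 96.1, 149.2 and 174.0 CPM at week 0, and at 58.0, 67.2 and 79.2 CPM against 150.9, 188.2 and 199.6 CPM at week 15. No treated animal fell into the placebo range at those weeks. The log2 fold change was 1.15 (SE 0.09, edgeR adjusted p = 4.12e-10) and 1.48 (SE 0.07, edgeR adjusted p = 1.12e-11).

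Of 15 genes for ZAP's cofactors and the RNA exosome, 3 were called higher at week 0 and 2 at weeks 3, 7, 11 and 15, and 0 were called lower at any of these weeks. At week 15 this was 13.3% of the list, about the 13.4% of all genes. The 2 called at week 15 were TRIM25, the ubiquitin ligase that ZAP works with (log2 fold change 2.03, SE 0.10, edgeR adjusted p = 1.31e-11), and KHNYN, the proposed endonuclease partner (1.41, SE 0.10, edgeR adjusted p = 1.18e-09). The exosome subunits, which degrade RNA from the 3′ end, had log2 differences between -0.35 (EXOSC2) and 0.17 (EXOSC9) at week 15. The median of the list was -0.07 at weeks 0, 3 and 15.

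SAMHD1, the dNTP hydrolase, changed least among the called members at weeks 0, 3 and 15, and ZC3HAV1 did at weeks 7 and 11. At week 0 it was at 24.1, 35.8 and 44.5 CPM in placebo and 40.0, 62.4 and 82.7 CPM in treated animals, and 9 of 11 treated animals were above the highest placebo animal. At week 15 it was at 26.4, 36.3 and 40.2 CPM against 63.3, 90.3 and 115.0 CPM, with no overlap. The log2 fold change was 0.84 (SE 0.12, edgeR adjusted p = 3.53e-06) at week 0, 1.04 (SE 0.13) at week 3, 1.47 (SE 0.11) at week 7, 1.67 (SE 0.12) at week 11 and 1.46 (SE 0.12, edgeR adjusted p = 3.25e-08) at week 15. At week 0 the 1.78-fold difference did not reach the alternative fold threshold of 2.

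Among 13 tested enzymes of nucleotide supply, which make or salvage the dNTPs that SAMHD1 removes, 0 were called higher at weeks 0, 3 and 7, 3 at week 11 and 2 at week 15, and 2 were called lower at week 0. The share at week 15, 15.4%, was near the 13.4% of all genes. At week 11 it was 23.1% against 12.6%, and at week 0 1198 of all 14700 genes were called lower. The 2 at week 15 were DCK, the deoxycytidine kinase of the salvage pathway (log2 fold change 1.86, SE 0.28, edgeR adjusted p = 4.57e-05), and RRM2, the S phase subunit of ribonucleotide reductase (1.36, SE 0.18, edgeR adjusted p = 9.01e-06). At the same week 8 of 8 proliferation genes were called higher, with a list median of 2.31 on the log2 scale. At week 0, 5 of the 8 were called lower. The median of the nucleotide list was -0.09 at week 15.

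SMC5 and SMC6, the restriction factors that act on the circular viral DNA, did not follow the others. SMC5 was at 18.7, 23.1 and 28.9 CPM in placebo and 19.8, 25.5 and 28.2 CPM in treated animals at week 0, and at 20.6, 24.97 and 30.3 CPM against 20.01, 21.95 and 27.3 CPM at week 15. The arms overlapped throughout, with 4 of 8 treated animals below the lowest placebo animal at week 15 and 2 of 6 at weeks 19 and 23. Its log2 difference was 0.09 (SE 0.08) at week 0 and -0.04 (SE 0.09, edgeR adjusted p = 0.773) at week 15, where the 95% interval ran from -0.22 to 0.15. The interval at week 7 was the narrowest, from -0.16 to 0.09.

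SMC6 tended lower in the wIFN-α arm by less than the fold threshold. At week 0 it was at 42.2, 50.04 and 65.5 CPM in placebo and 18.2, 43.3 and 65.1 CPM in treated animals, with 5 of 11 treated animals below the lowest placebo animal. At week 7, 8 of 9 treated animals were below the placebo range, which started at 51.8 CPM, and at week 15 7 of 8 were. At week 15 the values were 46.9, 57.7 and 75.1 CPM against 31.5, 42.7 and 48.4 CPM. The log2 difference was -0.37 (SE 0.16, edgeR adjusted p = 0.0726) at week 0, -0.21 (SE 0.16) at week 3, -0.37 (SE 0.10, edgeR adjusted p = 0.00545) at week 7, -0.08 (SE 0.09) at week 11 and -0.42 (SE 0.10, edgeR adjusted p = 0.00297) at week 15. An adjusted p under 0.05 with a lower level was reached by 23% of all genes tested at week 7 and 19.2% at week 15. When each animal was compared with its own week -3 biopsy, with the animal as replicate block, the difference was -0.25 at week 7 (edgeR adjusted p = 0.109) and -0.26 at week 15 (edgeR adjusted p = 0.335). Those fits take the week -3 biopsies of F1018 and F1016, poor in hepatocyte reads, as the start of their animals, and without both the difference was -0.30 at week 7 (edgeR adjusted p = 0.031) and -0.39 at week 15 (edgeR adjusted p = 0.0239). The lowest SMC6 values of all biopsies compared, 18.2 and 19.6 CPM, were the week 0 biopsies of wIFN-α animals M1007 and M1006.

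**Figure D3:**
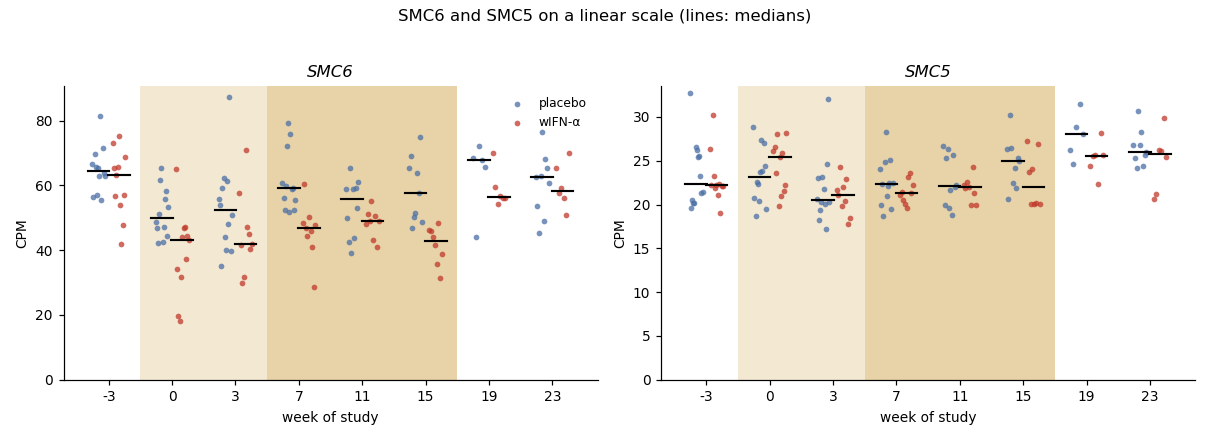
SMC6 (left) and SMC5 (right) in CPM on linear axes from 0, by week of study, with blue points for placebo biopsies, red points for wIFN-α biopsies and black lines for medians. Red SMC6 points sit mostly below the blue ones at weeks 7 and 15, where medians were 46.9 and 42.7 CPM against 59.1 and 57.7 CPM, while SMC5 points of the arms overlap at every week.

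The other genes of the complex and its target pathway were read beside them. Of 6 tested subunits and loaders of the SMC5/6 complex, 1 was called higher at week 0, 0 at week 3, 1 at week 7 and 2 at weeks 11 and 15. These were 16.7, 0, 16.7, 33.3 and 33.3% of the list. Of all genes, 10.3, 7.24, 11.4, 12.6 and 13.4% were called higher at those weeks. With so few genes the counts are not read as a result about the complex. The 2 at week 15 were NSMCE2, its SUMO ligase (log2 fold change 0.83, SE 0.14, edgeR adjusted p = 1.29e-04), and NSMCE4A, a kleisin subunit (0.65, SE 0.07, edgeR adjusted p = 5.17e-07). Of the 5 genes of the DDB1 ligase, CUL4B, a cullin scaffold, was called at week 15 (0.62, SE 0.07, edgeR adjusted p = 7.69e-07), or 20% of that list. DDB1 itself, the adaptor that the viral X protein occupies, had a log2 difference of -0.40 (SE 0.13, edgeR adjusted p = 0.0178) and stayed inside the fold threshold. Among the SMC proteins of other complexes, SMC4 and SMC2 of condensin (1.24 and 0.86) and SMCHD1 (0.71) were called at week 15, or 60% of the list. SMC1A and SMC3 of cohesin were not. At week 0 1 of the 5 was called lower, where 1198 of all 14700 genes were.

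For comparison, a list of 16 tested interferon-induced effectors outside the 10 members held 15, 14, 15, 16 and 16 genes called higher at weeks 0, 3, 7, 11 and 15. Over all tested genes the shares called higher were 10.3, 7.24, 11.4, 12.6 and 13.4%. Its median log2 fold change was 1.91 at week 0 and 2.13 at week 15. The largest at week 15 were ISG15, the ubiquitin-like modifier (5.92, SE 0.33), OAS1, the sensor of double-stranded RNA (5.25, SE 0.34), and GBP1, a GTPase of the guanylate-binding family (4.78, SE 0.28). RSAD2 and MX2 had larger values than these 3 at that week.

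At week 3 a single treated animal went against its group. F1013 held 20.9 CPM of RSAD2, where the 8 other wIFN-α animals held 1115 to 2755 CPM and the placebo animals 14.6 to 30.8 CPM. Its MX1 was at 697.4 CPM against 4676 to 7780 CPM, its BST2 at 8.53 against 53.0 to 163.0 CPM, and it held 0 MX2 reads. In the same animal RSAD2 was at 1246 CPM at week 0 and 3581 CPM at week 7. With F1013, all treated animals were above all placebo animals for 0 members at week 3, and without it for 8, where 0.327% and 3.69% of all tested genes were so separated. Without F1013, the members called at week 3 were called again. MX2 then passed the filter on low counts through the 8 other wIFN-α biopsies alone, with a log2 fold change of 8.72. The SMC6 level of F1013 at week 3, 71.1 CPM, was the highest of the treated animals. WHV reads made up 2.16% of assigned reads in that biopsy, within the 1.49 to 3.33% of its group.

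**Figure D4:**
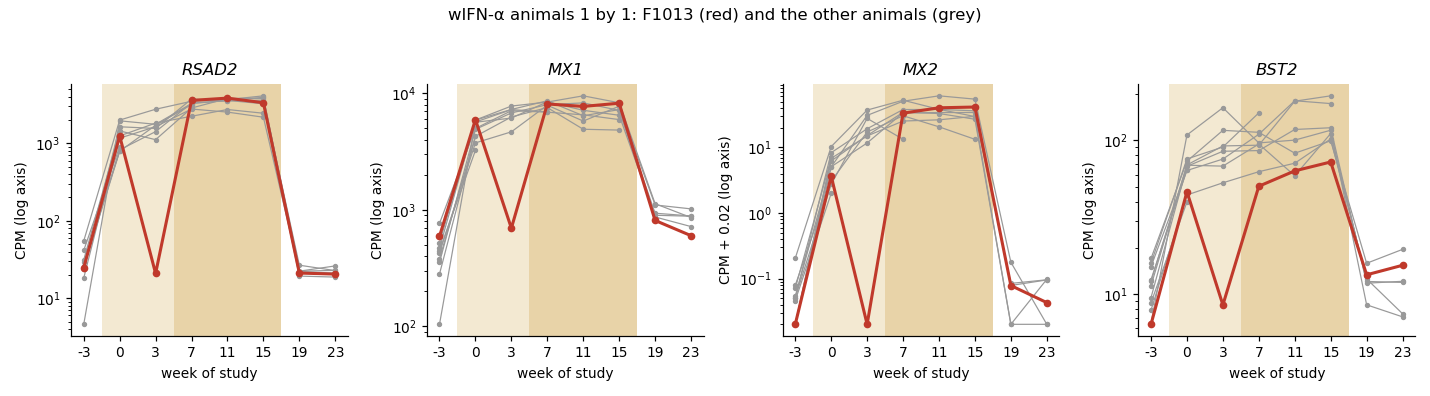
RSAD2, MX1, MX2 and BST2 in each wIFN-α animal over the study, in CPM on log axes (MX2 with 0.02 added), with F1013 in red and the other animals in grey, and with shading for the weeks of dosing. The red line drops at week 3 to the levels of weeks -3, 19 and 23 (RSAD2 20.9 CPM) and returns at week 7 (RSAD2 3581 CPM).

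The effect at week 15, at 100 µg, was then compared with the mean effect at weeks 0 and 3, at 20 µg. Dose and weeks of treatment cannot be told apart in this design. 0 of the 10 members passed an adjusted p under 0.05, where 2.69% of all genes did, and 4 had an unadjusted p under 0.05. Of those 4, MX2 passed the filter on low counts only through the wIFN-α biopsies, so its test carries no weight. The log2 difference of effects was 1.14 for RSAD2 (SE 0.35, edgeR adjusted p = 0.0557), 1.08 for BST2 (SE 0.45, edgeR adjusted p = 0.199) and 0.46 for SAMHD1 (SE 0.16, edgeR adjusted p = 0.0965). RSAD2, BST2 and SAMHD1 had the larger effect at the higher dose. For MX2 the difference was 1.79 (SE 0.88), given without a p-value. The same animals were sampled at these weeks, and with the animal as replicate block 3 members passed: BST2 (1.27, edgeR adjusted p = 0.00359), SAMHD1 (0.41, edgeR adjusted p = 0.0254) and RSAD2 (1.22, edgeR adjusted p = 0.0309), where 13.3% of all genes did. MX2 is left out of that reading, since its test carries no weight. Without F1013, RSAD2 passed also without the block (1.07, edgeR adjusted p = 0.000795), and with week 3 alone as the lower dose no member did. The other 6 members had differences from -0.29 (MX1) to 0.21 (ZC3HAV1), and the 95% interval for MX1 ran from -0.84 to 0.25 and that for CMPK2 from -0.85 to 0.50.

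The wIFN-α effect was compared between the sexes, as the effect in males minus that in females. At weeks 0 and 15, 0 of the 10 members passed, 0 had an unadjusted p under 0.05, and DESeq2 called 0. The differences lay between -0.61 (MX2) and 0.35 (ZC3HAV1) on the log2 scale at week 0 and between -0.65 (MX2) and 0.25 (SMC6) at week 15. No gene of the 15341 and 15624 tested passed, or 0% at both weeks.

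Off treatment no member differed by the test between the arms. At week 19, 0 of 9 tested members were called (0% of all 14715 genes), and at week 23 0 of 9 (0% of all 14956 genes). DESeq2 called 0 members at either week, and 87 and 35 of all genes. RSAD2 at week 19 was at 19.3, 22.2 and 26.7 CPM in the 6 wIFN-α animals, which lies inside the week -3 range of the same arm. MX2 was down to 12 reads in 202063248 gene reads at week 19, against 5 in 107523508 in placebo, a ratio of 1.28 (0.42 to 4.63).

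MX1 was the only member with an unadjusted p under 0.05 at week 19. Its level in the 5 placebo animals was 431.5, 612.5, 700.2, 715.1 and 881.4 CPM, and in the 6 wIFN-α animals it ran from 812.3 to 1131 CPM with a median of 918.7. Of the 6 treated animals, 4 were above the highest placebo animal. The log2 difference was 0.51 (SE 0.17, unadjusted p = 0.00998 and adjusted p = 0.314 by edgeR) and did not pass. At week 23 it was 0.40 (SE 0.30, edgeR adjusted p = 0.486), and the placebo animals spanned 154.1 to 1190 CPM. MX1 was higher than in the animal's own week -3 biopsy in 6 of 6 wIFN-α animals at week 19, with a median change of 1.28 on log2(CPM + 1), and in 4 of 5 placebo animals, with 1.23. At week 23 it was higher in 6 of 6 and 7 of 9, with medians of 0.95 and 0.98. Without F1018 and F1016 the medians were 1.27 and 1.15 at week 19 and 0.88 and 0.78 at week 23.

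Marker transcripts of cells other than hepatocytes differed between the arms at some weeks, and no cells were counted. Of all genes, 10.3% were called higher at week 0 and 13.4% at week 15. Of the 8 T cell markers, none of which was at 0 in all biopsies, 1 was called higher at week 0 (12.5%) and 7 at week 15 (87.5%). Their summed share of gene reads was 0.00431 to 0.0135% in treated and 0.00573 to 0.0114% in placebo animals at week 0, and 0.00955 to 0.0241% against 0.00466 to 0.00744% at week 15. The 6 NK and cytotoxic markers, again with none at 0 in all biopsies, had 3 called higher at week 0 (50%) and 4 at week 15 (66.7%). At week 0 their log2 differences ran from -0.79 to 1.81. Their share was 0.00231 to 0.00562% in treated and 0.00146 to 0.00278% in placebo animals at week 0, and 0.00338 to 0.00712% against 0.00161 to 0.00284% at week 15. Of 6 tested B and plasma cell markers 0 were called higher at week 0 and 3 at week 15. Of 11 macrophage markers 1 was called higher at week 0, and at week 15 3 were called higher and 1 lower. Of 5 neutrophil markers 1 was called higher at each of these weeks. Of the 12 hepatocyte markers 0 were called at week 0 and 1, higher, at week 15. The part of such cells in the members' levels was not tested. The labels give lane numbers but no flow cell, and 68 of 75 combinations of barcode and lane number recur for several biopsies, so that a number pools several lanes. On treatment, BST2, RSAD2, CMPK2, ISG20, SAMHD1, ZC3HAV1, MX1 and MX2 were higher in the wIFN-α biopsies within 7 of 7 lane numbers, SMC6 lower in 7 of 7, and SMC5 higher in 3 of 7.

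WHV transcripts were counted in the same libraries. In placebo animals they took 0.947, 2.43 and 3.29% of assigned reads (lowest, median, highest) at week 0 and 1.10, 2.23 and 2.79% at week 15. In wIFN-α animals they took 1.66, 2.26 and 4.11% at week 0 and 0.00577, 0.566 and 2.23% at week 15. The ratio of geometric means was 1.10 at week 0, 1.04 at week 3, 0.865 at week 7, 0.465 at week 11 and 0.139 at week 15. A two-sided exact permutation test gave p = 0.00576 at week 15 (adjusted over the 8 weeks, 0.0461) and p = 0.0177 at week 11 (adjusted 0.0708), and the other 6 weeks had adjusted p of 0.473 or more. At week 0, when 8 members were called, MX2 among them, the share of WHV reads did not differ (permutation p = 0.491, adjusted 0.655).

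At week 15 the 8 treated animals fell into separate ranges of WHV share. M1002 and F1020 lay at 0.00577% and 0.0164%, and the 6 others between 0.229% (F1022) and 2.23% (F1014). BST2 was highest in those 2 animals, at 173.4 CPM in M1002 and 194.7 CPM in F1020, and lowest in F1013 (72.4 CPM, 1.37%). MX1 was lowest in them, at 5957 CPM in M1002 and 4841 CPM in F1020, and highest in F1014 (8307 CPM). Over all 8 animals BST2 had a Pearson r of -0.86 with log10 share (exact permutation p = 0.0105, adjusted over 10 members 0.0525) and Spearman's rho of -0.71 (exact permutation p = 0.0576, adjusted 0.277). Its r was -0.92 without the 2 animals farthest from the median BST2 level, a set that still held M1002, which had the lowest share. MX1 had r of 0.85 (exact permutation p = 0.00843, adjusted 0.0525) and rho of 0.88 (exact permutation p = 0.00724, adjusted 0.0724). Its r was 0.68 without its 2 farthest animals, which were M1002 and F1020, so this check differs from that for BST2. SMC5 had r of -0.78 (exact permutation p = 0.0165, adjusted 0.0551) and rho of -0.57 (exact permutation p = 0.151, adjusted 0.342). Its r was -0.06 without its 2 farthest animals, again M1002 and F1020, so that this relation did not hold without them. By adjusted p, 0 of 10 members passed. Because the shares lay in separate ranges, r was also taken within the 6 animals other than M1002 and F1020, a choice made after the shares were seen that narrows the range of the share itself. It was -0.40 for BST2 (exact permutation p = 0.486) and 0.68 for MX1 (exact permutation p = 0.143). For MX1 this is the same calculation as the one above, since the same 2 animals were left out. The largest was 0.87 for CMPK2 (exact permutation p = 0.0417, adjusted 0.417), and 0 of 10 members passed there.

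**Figure D5:**
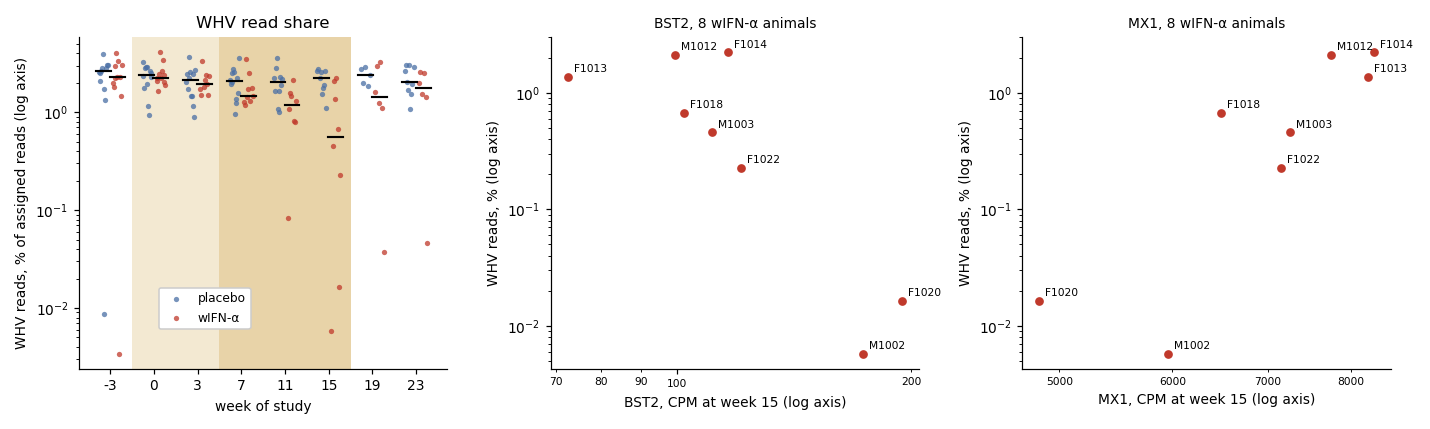
Left, WHV reads as a percentage of assigned reads by week and arm on a log axis, with medians as black lines; middle and right, the same share at week 15 against BST2 and MX1 in CPM (log axes) in the 8 wIFN-α animals. The wIFN-α median falls to 0.566% at week 15, F1020 and M1002 hold the lowest shares with the highest BST2 and the lowest MX1, apart from the 6 other animals.

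By the pattern of log2(CPM + 1) over all biopsies compared, the nearest genes differed among members. RSAD2 was closest to IFIT1 (Pearson r = 0.99), PML (0.98) and IFIT3 (0.98), CMPK2 to PML (0.98), IFIT3 (0.98) and OASL (0.97), and MX1 to IFI44, PML and PARP12 (0.96 each). BST2 was closest to IFI16, OAS1 and ZBP1 (0.93 each), ISG20 to PARP10, SAMD9L and IFI35 (0.96 each), and ZC3HAV1 to ARAP2, PARP14 and TRIM14 (0.96, 0.95 and 0.95). MX2 was closest to RSAD2 (0.97), then to C3orf49 and MARCKS (0.96 each). SAMHD1 was close to ANKDD1A (0.94) and GBP1 (0.92). SMC6 had no neighbour above 0.77 (CTDSPL) and SMC5 none above 0.67 (ZNF451). These biopsies share animals and the step between dosing and no dosing, and they include the 2 poor in hepatocyte reads, so that the r values are a description.

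Within the treated biopsies during dosing, r between members depended on the week 3 biopsy of F1013, so both values are given. RSAD2 and MX2 had r of 0.82 over 45 biopsies and 0.84 over the 44 without it, BST2 and SAMHD1 0.70 and 0.63, RSAD2 and ZC3HAV1 0.79 and 0.66, and RSAD2 and MX1 0.88 and 0.63. ISG20 turned from positive to negative r with the other effector that acts on RNA, ZC3HAV1 (0.24 and -0.41), with MX1 (0.50 and -0.31) and with RSAD2 (0.50 and -0.305). BST2 and MX1 went from 0.61 to 0.17. SMC6 had r of -0.51 and -0.44 with ISG20, and of -0.47 over the 81 placebo biopsies. The treated biopsies share animals and pool the weeks of dosing, whose medians moved differently among members. The median of ISG20 was 73.2 CPM at week 0 and 43.7 CPM at week 15, and that of RSAD2 1246 and 3477 CPM. The part of the weeks in these r values was not tested.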

How the data were processed

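Poly(A) RNA of woodchuck liver biopsies was sequenced as paired-end, non-stranded TruSeq libraries. The authors aligned reads with Bowtie2 to their own woodchuck transcriptome assembly, in which contigs carry symbols of related human and rodent genes, and counted them with SAMtools. The deposited expected counts per gene (118 of 3368022 nonzero values are fractional) are not normalized. The deposited RPKM values divide the counts by the table total and the assembled length. The files give no genome coordinates, so no positions are given for the members. RefSeq sequences of the members were not used here.

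The 203 runs came from 164 biopsies. Where a biopsy had several runs (38 biopsies), their counts were added and then rounded. The WHV entry was kept out of library sizes. Used here were 68 wIFN-α and 81 placebo biopsies. Those of M1004, which the study set aside (7 biopsies), and 8 taken at other times were left out of the comparisons. Groups follow the agent and week in the labels. The labels give no separate cultures or extractions, and each animal gave 1 value per week. The 10 members and all gene lists were chosen with earlier results of these data known.

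Counts were analysed in R 4.3.3 with edgeR 4.0.16 (TMM, filterByExpr, quasi-likelihood F test, Benjamini-Hochberg adjustment over all genes tested). Calls required an adjusted p below 0.05 together with more than 1.5-fold change. For the dose and sex contrasts the adjusted p alone decided. Standard errors were taken as the absolute log2 fold change divided by the square root of F. Alternatives used DESeq2 1.42.0, RLE normalization, no filter, the deepest run, M1004 included, sex as covariate, a threshold of 2-fold, 1 model over the whole course with and without lane number, biopsies with over 1% muscle reads left out, single animals left out in turn, and the animal as replicate block. Leaving out the 2 biopsies poor in hepatocyte reads (under 1%), also with the replicate block, comparing members with the WHV share within 6 animals, and correlating members without the week 3 biopsy of F1013 were chosen after seeing the data. Biopsies of 1 animal pair by design. Deviations from group means had a median correlation of 0.304 over 450 pairs of weeks of the same animal (326 above 0.1) and of -0.00736 over 9201 pairs of other animals. Permutation tests were two-sided, exact for groups below 10 animals, with 100000 resamples for larger ones (Python 3.11.15, scipy 1.17.1). The fits were tested on simulated data. All 10 members are named, with up to 3 called genes of each list at week 15 and the 3 genes with the highest r to each member among 13918 genes averaging 1 CPM or more. A gene that this rule would name is not reported here. Genes named beyond this rule were chosen after their values were seen.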

Additional observations from a re-analysis of the deposited data

Results flagged for a closer look

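In groups of 4 to 10 animals, the highest or lowest animal was compared with the gap to its neighbour (Dixon's criterion at 95%) on log2(CPM + 1). Of 110 groups of animals tested for the members and the WHV share, 17 held such an animal, where chance gives about 1 in 20 for a single group. The groups were not independent, since the same biopsies were tested for every member, so no excess over chance is read from this count.

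F1013 at week 3 stood apart from the 8 other wIFN-α animals in 7 members. Its values were 8.53 CPM for BST2, 20.9 CPM for RSAD2, 5.98 CPM for CMPK2, 4.21 CPM for ISG20, 36.7 CPM for SAMHD1, 697.4 CPM for MX1 and 0 CPM for MX2, each the lowest of its group.

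Placebo animal M1008 stood apart at 15.7 CPM for CMPK2 at week 15, at 43.3 CPM for SAMHD1 and 44.0 CPM for SMC6 at week 19, and at 63.3 CPM for SAMHD1 at week 23. The 4 other placebo animals of week 19 held 29.6 to 32.4 CPM of SAMHD1 and 65.8 to 72.3 CPM of SMC6. The 2 runs of its week 15 biopsy, which carry the same barcode, differed by a chi-square per degree of freedom of 130.9, where the 33 other pairs of runs with a shared barcode gave 1.13 to 2.47. Whether both runs come from that biopsy was not tested, and its week 15 values, with 15.7 CPM of CMPK2 and 505.1 CPM of MX1, the lowest of the placebo arm, carry that doubt. Before TMM scaling the runs held 17.3 and 21.8 CPM of CMPK2 and 631.3 and 569.2 CPM of MX1. Without M1008, 8 members were called at week 15, MX2 among them.

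M1003 was highest for ZC3HAV1 at week 11 (200.7 CPM, the others 157.7 to 176.7) and for SMC6 at week 19 (70.2 CPM, the others 54.2 to 59.6). F1018 was lowest for ZC3HAV1 at week 23 (52.1 CPM, the others 63.1 to 70.7). The WHV share was lowest in M1002 at week 11 (0.0835%, the others 0.798 to 2.13%) and in F1022 at week 19 (0.0377%, the others 1.11 to 3.24%) and week 23 (0.0459%, the others 1.44 to 2.58%). The 2 runs of F1022 at week 19 carry different barcodes and gave a chi-square per degree of freedom of 29.91. Those of M1002 at week -3 gave 14.7, and the other pairs with different barcodes 3.54 to 4.60. Whether both runs of F1022 at week 19 come from that biopsy was not tested.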

How the results depend on the processing

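The 8 calls at weeks 0, 7, 11 and 15 and the 7 at week 3 were stable in number. MX2 is 1 of the 8. Its calls carry no weight, since it passed the filter on low counts only through the wIFN-α biopsies. There were 8 at weeks 7, 11 and 15 under every alternative run. At week 0 there were 7 or 8 (7 with a fold change above 2, where SAMHD1 drops out). At week 3 there were 7, or 8 where MX2 passed the filter on low counts, which adds nothing to the 7. No member was called at weeks -3, 19 and 23 under any alternative run. With the replicate block, the counts were 8, 7, 8, 8 and 8 at weeks 0, 3, 7, 11 and 15 and 0 at weeks 19 and 23. The test of week 15 against weeks 0 and 3 called 0 members in the main analysis, 3 with the replicate block, 3 with the mean of weeks 7, 11 and 15 as the higher dose, 1 with DESeq2 and 1 with week 0 alone as the lower dose. With single wIFN-α animals left out it called 0 to 1, the 1 without F1013. The share of all genes passing was 2.69% in the main analysis and 13.3% with the replicate block. For the other settings no share of all genes is given, so their counts are not read as a result about the members. The WHV share differed at 1 week in the main analysis and at 2 without the biopsies rich in muscle reads. Leaving out the 2 biopsies poor in hepatocyte reads changed neither the 0 members called at week -3 nor the 1 week of WHV share, nor any of the counts with the replicate block. For SMC6 it brought the paired adjusted p under 0.05 at weeks 7 and 15, at less than the fold threshold. For single members and weeks, 1299 values kept their side of the threshold, 9 gained a call and 1 lost it. The cause of these changes was not tested. MX2 in placebo liver, at 0 to 6 reads a biopsy, is limited by depth.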

Other observations

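M1004, the wIFN-α animal set aside by the study, was sampled at 7 weeks. Before treatment RSAD2 stood at 40.7 CPM, over the 5 weeks of dosing at 1911, 2916, 4237, 4105 and 4526 CPM, and at 22.5 CPM once dosing had ended. MX2 in the same biopsies was at 0.041, 11.8, 43.2, 49.9, 56.5, 56.0 and 0 CPM. The RSAD2 level at week 15 was above that of all 8 other treated animals. The WHV share of its biopsies went from 2.71% before treatment to 1.31% at the first week of dosing and 0.00334% at the last.

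Biopsies taken at death or at other times belong to no comparison. F1020, when it died, held 54.1 CPM of BST2, above the 45.2 CPM of the highest placebo biopsy, while RSAD2 was at 15.1, CMPK2 at 6.25 and MX1 at 244.0 CPM, and SMC6 was at 27.6 CPM. F1023, when it died, held 51.7 CPM of BST2, 90.4 CPM of RSAD2, 1401 CPM of MX1 and 27.4 CPM of SMC6. M1007, when it died, held 3004 CPM of RSAD2, 6772 CPM of MX1 and 182.6 CPM of BST2. M1006 in a biopsy between the planned weeks held 1777 CPM of RSAD2 and 33.7 CPM of SMC6. M1002, at a last biopsy after the planned weeks, held 28.1 CPM of RSAD2 and 905.1 CPM of MX1 with a WHV share of 0.00982%. The placebo biopsies of F1017, M1010 and F1024 taken at the end held 15.9 to 22.3 CPM of RSAD2.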
